A study of Mustela putorius furo with 8 samples.

Results

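The cells described here are the centroacinar progenitors of the CF cultures that lie outside CF cluster 4. They were chosen by the deposited cell table alone: the class name given to each cell had to be centroacinar progenitor and its cluster had to be one of the CF clusters other than cluster 4. The rule found 1110 cells, all of them in CF clusters 17, 18, 21 and 25, among 11345 retained CF cells and 32945 retained cells in all. Cluster 17 held 349 of these cells, cluster 18 held 338, cluster 21 held 226 and cluster 25 held 197. The remaining 10235 CF cells, from 26 other clusters, are called the other CF cells.

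The study polarized ferret pancreatic ductal epithelial (PDE) cultures at an air-liquid interface (ALI) and sequenced single cells after 2, 5, 7 and 9 days. The CF cultures carried the CFTR KO/KO genotype and the comparison cultures were WT, both grown from newborn animals aged 1 to 3 days and passaged 10 times as ductal cells before polarization. Each genotype and day gave 1 library, in which cells of 3 donors were pooled. No library has a replicate, so values are given without a test, and genotype, day and library cannot be told apart when libraries are compared.

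Centroacinar cells sit where the smallest pancreatic ducts meet the acinus, and they are often discussed as a reserve of progenitors in the exocrine pancreas. Aldehyde dehydrogenase activity is a common handle for such cells. Membrane mucins such as MUC1 cover the apical face of duct cells, whereas secreted mucins and trefoil factors are usually features of gastric, intestinal and airway surface epithelium.

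Depth differed little between the CF libraries, with a median of 17833 to 23427 unique molecular identifiers (UMIs, each standing for 1 captured RNA molecule) per cell. The progenitors had a median of 24512 UMIs and 4830 genes per cell, against 20263 and 4485 in the other CF cells. Their median mitochondrial share was 7.71%, against 6.59%. Cluster 25 held the deepest cells, with a median of 39724 UMIs and a mitochondrial share of 10.4%. Cluster 21 stood apart from clusters 17, 18 and 25, with a median of 1043.5 UMIs and 693 genes. Its median UMI count was 0.047 of the median of its libraries, and 210 of its 226 cells had fewer than 3000 UMIs. Its median mitochondrial share was 0.295%. Its 15 leading genes by fold over all CF cells outside it were all annotated as ribosomal RNA. Such genes took 3.05% of its UMIs against 0.0612% to 0.25% in clusters 17, 18 and 25. CF cluster 13, of the centroacinar class, was similar, with a median of 1018 UMIs and 677 genes. Of its 371 cells, 344 had fewer than 3000 UMIs, and ribosomal RNA genes took 2.12% of its UMIs. CF clusters 23 and 27 were also of low UMI count, with medians of 3246 and 4718 UMIs. Because of its low depth and its leading genes, cluster 21 is referred to by its number and given no cell type name here. ALDH1A1, TSPAN8, MUC1, MUC13 and NR5A2 were not among its leading genes, nor among those of clusters 18 and 25. The cells of cluster 21 carry the deposited class name and are counted with the progenitors unless stated otherwise. Barcodes present in more than 1 library numbered 148, and 7 of the progenitors carried one of them. CFTR itself, as a check of the labels, stood at 2.502, 8.69, 11.1 and 11.4 CPM (a gene's UMIs in each 1000000 UMIs) in the CF libraries at days 2, 5, 7 and 9 and at 6.57, 16.9, 15.9 and 29.5 CPM in the WT libraries. The paper describes KO/KO ferrets as lacking both CFTR mRNA and CFTR protein, and the UMIs counted in the CF libraries differ from that description. Whether the counted tags lie in the disrupted stretch of the gene was not examined, so these counts do not check the genotype.

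With CF cluster 4 left out by the rule, few progenitors remained at day 2, and they were common from day 5 onwards. They made up 8 of 4499 CF cells at day 2, a share of 0.178% with an exact Clopper-Pearson interval of 0.0768% to 0.35% at 95% confidence. The share was 19.2% (17.8% to 20.8%) at day 5, or 529 of 2750 cells. At day 7 it was 20.4% (18.5% to 22.5%), or 328 of 1607 cells. At day 9 it was 9.84% (8.70% to 11.1%), or 245 of 2489 cells. Intervals here and throughout cover counting error only. CF cluster 4, whose cells carry the same class name, held 613 cells or 13.6% of the CF cells at day 2 and was almost confined to that day, with 9, 3 and 1 cells at days 5, 7 and 9. The low share at day 2 therefore depends on the rule, and 7 of the 8 cells there lay in cluster 21. With 8 cells at day 2, levels could be compared at days 5, 7 and 9 only.

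The 4 clusters changed places between day 5 and day 9. Cluster 17 was the main one at day 5, with 254 cells or 48.0% (43.7% to 52.4%) of the progenitors, and held 56 and 39 cells at days 7 and 9. Cluster 18 was at 89, 110 and 139 cells and reached 56.7% of the progenitors at day 9 from 16.8% at day 5. Cluster 25 was a day 5 cluster, with 169 cells there, 26 at day 7 and 1 at day 9. Cluster 21 had its peak at day 7, with 136 cells after 17 at day 5 and before 66 at day 9. Cluster 21 consisted mostly of shallow cells, and without it the share of the progenitors was 11.9% at day 7 and 7.19% at day 9. Among the other CF cells, 283 of 1279 at day 7 and 160 of 2244 at day 9 also had fewer than 3000 UMIs. They stayed in the total, so these shares leave out shallow cells among the progenitors only. The shares in cells of at least 3000 UMIs are given in the closing section. Cells pass the filters of each library in proportions that were not measured, so a share of retained cells need not be a share of the culture.

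**Figure D1:**
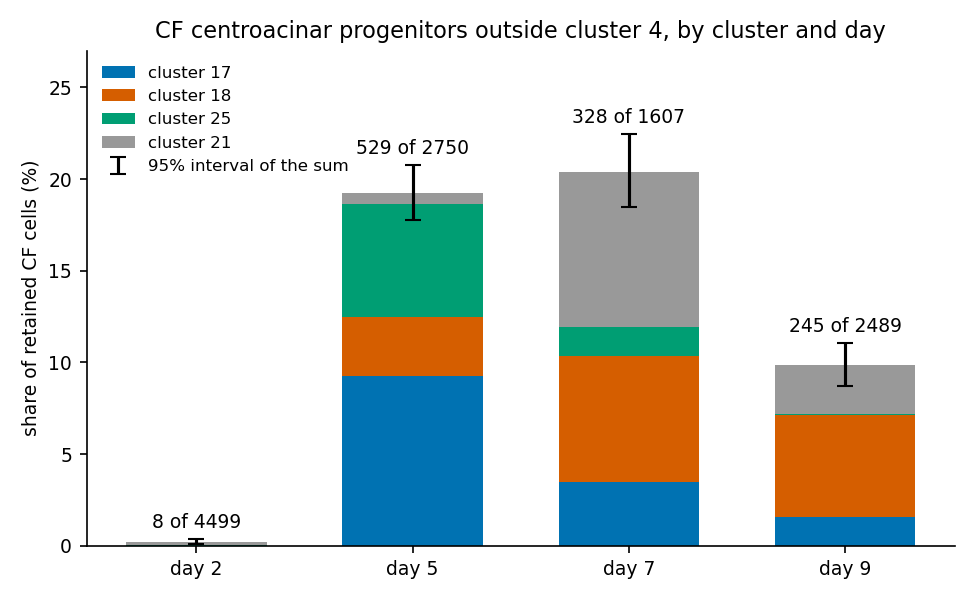
Share of retained CF cells (y axis, %) that were centroacinar progenitors outside cluster 4 at each day at the ALI (x axis), stacked by cluster, with the exact 95% interval of the sum as an error bar. The bars stand at 0.178%, 19.2%, 20.4% and 9.84%, with cluster 17 the largest piece at day 5, cluster 21 at day 7 and cluster 18 at day 9.

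The label was set beside 5 markers, of which 3 were at least 2-fold higher in the progenitors at every day, as were 2.43% of all genes examined. The study characterized this class by these markers except NR5A2, so they describe the label and do not check it. The mucin MUC1 measured 1489, 1360 and 1162 CPM in the progenitors at days 5, 7 and 9, and 465, 291 and 343 CPM in the other CF cells. MUC13, another membrane mucin, measured 28.7, 36.8 and 45.9 CPM against 4.20, 5.89 and 13.0 CPM. The tetraspanin TSPAN8 measured 150, 170 and 192 CPM against 73.3, 47.6 and 62.5 CPM. All 3 were higher in the progenitors at each of the 3 days, and TSPAN8 passed 2-fold narrowly at day 5, where the ratio was 2.05 with an exact interval of 1.95 to 2.16. The retinal dehydrogenase ALDH1A1 measured 211, 222 and 176 CPM against 125, 140 and 105 CPM. NR5A2, a nuclear receptor of the exocrine pancreas, measured 74.4, 67.5 and 65.5 CPM against 49.8, 37.3 and 39.4 CPM. Neither reached 2-fold at any day, with mean log2 differences of 0.72 and 0.71. These log2 differences are of CPM plus 1, averaged over days 5, 7 and 9, and are used for all genes that follow.

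The clusters had been made from these same genes by the study, so the comparison of the progenitors with the rest is a description. Among 8476 genes with at least 10 CPM on either side at a day, 206 (2.43%) were at least 2-fold higher in the progenitors at all 3 days and 437 (5.16%) were at least 2-fold lower. The median difference over all these genes was -0.05. In the counts that follow, higher and lower mean by at least 2-fold at all 3 days. The 3 of 5 progenitor markers stand beside these shares, and the marker list that the study used for this class holds 4 of the 5. The progenitor list that the study chose on these libraries had 5 of 11 genes higher and 0 lower, with a median of 1.72, and is not independent of the class name.

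The other CF cells are a mixture of clusters, and these counts depended on which of them were set beside the progenitors. When the progenitors were set beside CF cells of the ductal class alone, 10 of 8097 genes (0.124%) were at least 2-fold higher at all 3 days and 53 (0.655%) were lower. By correlation of profiles across genes, the CF clusters nearest to clusters 17, 18 and 25 from day 5 onwards were clusters 7 and 15 of the centroacinar class and 12 and 19 of the ductal class. Their mean Pearson r with the 3 clusters was 0.955 to 0.968, against 0.889 for the next such cluster, while clusters 17 and 18 had an r of 0.986 with each other. CF cluster 4, almost confined to day 2 and so not counted here, had an r of 0.966, 0.955 and 0.963 with clusters 17, 18 and 25. Cluster 25 had a higher r with cluster 15, at 0.976, and with cluster 7, at 0.973, than with cluster 17, at 0.969. Genes are not independent replicates, so these r values describe the libraries only. Clusters 12 and 15 held 329 and 344 cells at day 5 but 12 and 5 at day 9. Clusters 7 and 19 held 1 and 10 cells at day 5 but 473 and 233 at day 9. The nearest clusters thus stand for mostly different clusters at day 5 and at day 9. Against clusters 7, 12, 15 and 19 together, 8 of 7967 genes (0.1%) were higher and 17 (0.213%) were lower. None of the 5 markers was among the higher genes in either comparison, and their mean log2 differences from the 4 nearest clusters were 0.53 for MUC1, 0.98 for MUC13, 0.62 for TSPAN8, 0.49 for ALDH1A1 and 0.22 for NR5A2. Against the ductal class they were 0.63, 1.40, 0.50, 0.41 and 0.19 in the same order. MUC1 and MUC13 did pass 2-fold at day 5 in the ductal comparison, at 1489 against 636 CPM and 28.7 against 3.10 CPM, and MUC13 also did so at day 5 against the nearest clusters, at 28.7 against 9.81 CPM.

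CES1, a carboxylesterase that hydrolyses esters and lipids, had the largest positive difference and was also among the higher genes against the ductal class and against the 4 nearest clusters. It measured 116, 183 and 320 CPM in the progenitors at days 5, 7 and 9, and 27.1, 23.7 and 27.8 CPM in the other CF cells. The ratio was 4.27 (3.99 to 4.58) at day 5 and 11.5 (10.7 to 12.4) at day 9, with a mean log2 difference of 2.81. Against the 4 nearest clusters the mean difference was 1.76, and against the ductal class it was 1.24. CES1 was seen in many of the cells: 71.0% of the progenitors at day 9 had at least 1 UMI, against 3.07% of cluster 3, a centroacinar cluster of similar depth (medians 19356 and 18486 UMIs) that served as the background. With each cell thinned to 3000 UMIs, which left out 64 of the progenitors and 1 cell of cluster 3, the shares were 45.9% and 1.35%. Cluster 3 was not close to the progenitors in profile, with a mean r of 0.709 to clusters 17, 18 and 25. At day 9 CES1 measured 52.2 CPM in the 4 nearest clusters and 125 CPM in the ductal class. No share of cells was taken for either.

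The other genes of largest positive difference were as follows. FAM3B, a secreted factor of islets and epithelia, measured 78.1, 117 and 170 CPM against 13.4, 16.0 and 26.5 CPM. Lactoferrin, LTF, an iron-binding antimicrobial protein, measured 197, 358 and 344 CPM against 22.9, 64.0 and 90.1 CPM. The trefoil peptide TFF2 measured 92.2, 429 and 377 CPM against 9.43, 56.4 and 187 CPM. TFF2 had a smaller ratio at the last day, when it was 2.01 (1.91 to 2.12). A TFF2 UMI was seen in 17.4% of the progenitors at day 5 and in 38.0% at day 9. After thinning to 3000 UMIs these shares were 6.03% and 23.8%. MAL, which helps to sort proteins to the apical membrane, measured 527, 668 and 991 CPM against 100, 85.9 and 263 CPM. The urothelial tetraspanin UPK1A measured 478, 719 and 1024 CPM against 122, 122 and 206 CPM. The growth factor EGF measured 21.02, 36.8 and 63.4 CPM against 4.81, 6.79 and 10.3 CPM. All 3 of these were highest at day 9 in both groups of cells. The chemokine CXCL17 was high and level in the progenitors, at 886, 829 and 811 CPM against 208, 135 and 209 CPM. MRAS, a small GTPase, and PM20D1, a secreted peptidase, each had a mean difference of 2.30, and the membrane mucin MUC4 had 2.28. The uncharacterized loci LOC101684959 and LOC101693702 had 2.25 and 2.22. Of the 15 genes of largest positive difference, CES1 and MRAS were also higher against the 4 nearest clusters, and CES1, MRAS and MAL against the ductal class. The others did not pass 2-fold at all 3 days there. CXCL17, for example, measured 475, 540 and 467 CPM in the nearest clusters, a mean difference of 0.77, and the differences there were 0.84 for UPK1A, 1.07 for LTF, 0.97 for MUC4 and 1.26 for FAM3B.

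SPINK1, a trypsin inhibitor, rested on few cells. It measured 85.3, 113 and 1218 CPM in the progenitors at days 5, 7 and 9, against 13.8, 44.9 and 173 CPM. At day 7 it was lower than in the ductal class (167 CPM) and in the 4 nearest clusters (190 CPM), and its mean difference was 2.22 against the other CF cells, 1.28 against the ductal class and 0.71 against the nearest clusters. At day 9, 54 of 245 progenitors had a SPINK1 UMI, or 22.0%, against 5.37% of cluster 3, which was not among the nearest clusters. After thinning to 3000 UMIs the shares were 14.9% and 0.385%. In cluster 17 at day 9, where the level was 1868 CPM, 10 of 39 cells had a SPINK1 UMI and 1 cell held 53.3% of them.

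The 10 genes of largest negative difference included TAGLN, SPARC and SPP1, which stood higher in the other CF cells at days 7 and 9 than at day 5. TAGLN, an actin-binding protein of smooth muscle and myofibroblasts, measured 1.88, 5.96 and 4.24 CPM in the progenitors and 35.3, 623 and 645 CPM in the other CF cells. SPARC, a matricellular protein, measured 7.88, 17.3 and 12.7 CPM against 121, 978 and 1007 CPM. Osteopontin, SPP1, measured 4.57, 33.4 and 18.1 CPM against 52.4, 1342 and 2118 CPM. The mean log2 differences were -5.70, -5.24 and -5.11. The actin regulator CALD1, the basement membrane collagen COL18A1, the activin inhibitor FST and the cadherin CDH6 had differences from -5.29 to -4.75, and the loci LOC101679740, LOC101679442 and LOC101686051 had -5.74, -5.05 and -4.57. Cluster 11 was the highest CF cluster for TAGLN, SPARC and SPP1, at 3037, 2895 and 5968 CPM. Without clusters 3 and 11 among the other CF cells, 301 genes were lower and 99 were higher. Against the ductal class TAGLN had a difference of -0.26, SPARC of -1.02 and SPP1 of -1.04, and none of the 3 passed 2-fold at all 3 days. Of the 10 genes, COL18A1, CDH6, LOC101679442 and LOC101686051 did pass it against the ductal class, with -1.87, -1.85, -1.46 and -1.70, and CDH6 alone against the 4 nearest clusters, with -1.74.

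The keratin KRT5, a basal cell marker, was lower in the progenitors in the comparison with the ductal class too. It measured 75.5, 28.1 and 12.5 CPM against 684, 800 and 404 CPM in the other CF cells and 341, 169 and 72.2 CPM in the ductal class. LY6D, a surface protein of squamous cells, measured 87.2, 12.5 and 220 CPM against 871, 338 and 794 CPM in the ductal class. SNAI2, a transcription factor of the epithelial-mesenchymal transition, measured 5.94, 3.20 and 0.471 CPM against 22.9, 13.2 and 10.9 CPM there. Each of these was at least 2-fold lower at every day. Against the 4 nearest clusters SNAI2 was at least 2-fold lower at every day. KRT5 measured 205, 106 and 24.3 CPM in those clusters, so it was lower in the progenitors at every day but by less than 2-fold at day 9. LY6D measured 235, 100.4 and 50.6 CPM there, so that it was higher in the progenitors at day 9. At that day LY6D stood at 278 CPM in cluster 18 and 9.30 CPM in cluster 17.

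**Figure D2:**
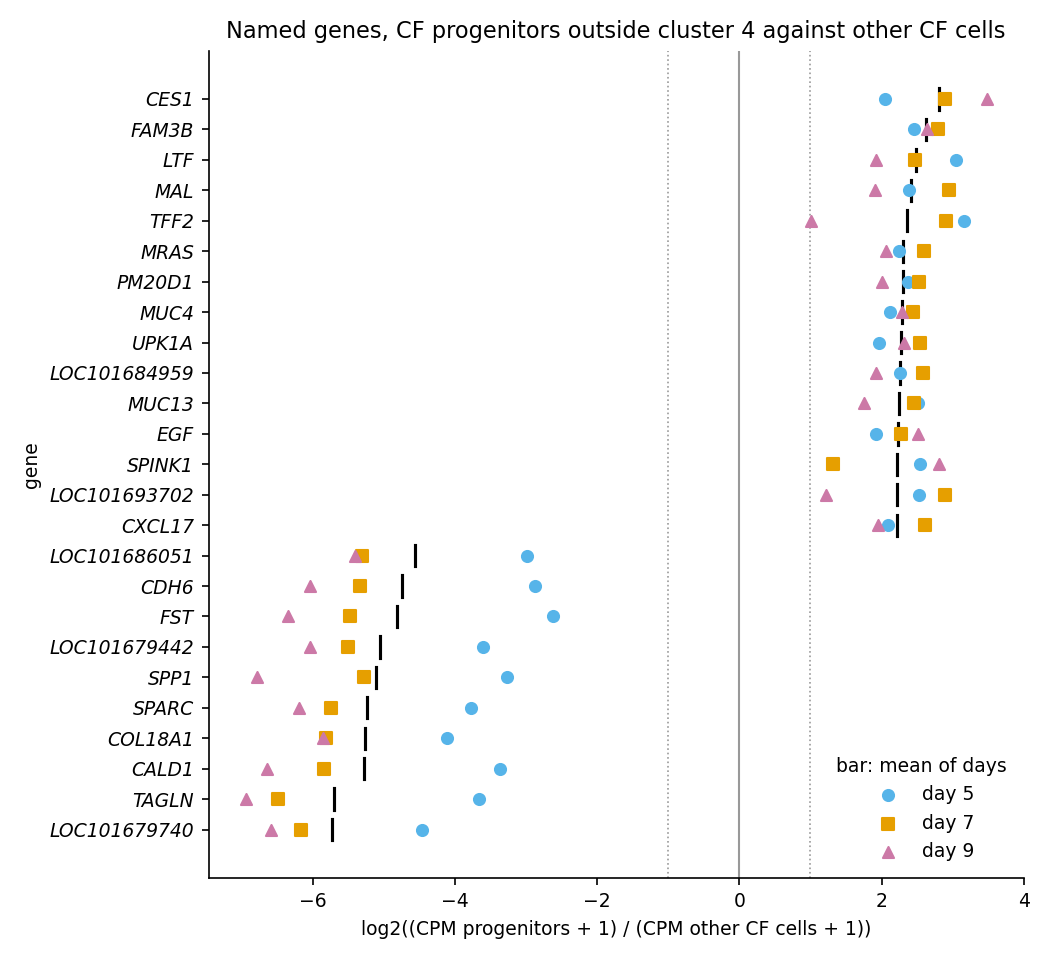
Log2 difference in CPM plus 1 (x axis) between the progenitors and the other CF cells for the named genes (y axis), with 1 symbol per day (5, 7 and 9) and a bar at the mean of the days. CES1 stands highest with a mean of 2.81 and LOC101679740 lowest at -5.74, and the lower genes lie further from 0 than the higher ones.

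Mucins and trefoil factors had the highest medians among the lists. Of 5 measured membrane mucins, 3 were higher at every day (MUC1, MUC4 and MUC13) and 0 were lower, beside 2.43% and 5.16% of all genes, with a median of 1.90. All 3 were also higher at each day than in the ductal class and in the 4 nearest clusters, but not by 2-fold at every day, and there the list medians were 1.14 and 0.95. MUC17 was higher at days 5 and 7, at 7.88 and 13.1 CPM against 0.811 and 0.718 CPM, and measured 7.07 against 5.22 CPM at day 9. Of 6 genes listed as secreted mucins and trefoil factors, TFF2 and TFF3 were higher at every day and 0 were lower, with a median of 1.95. That list also holds AGR2, which is neither. AGR2 had a mean difference of -0.65 from the 4 nearest clusters, with 39.1 against 278 CPM at day 9, and of 0.25 from the ductal class. TFF3 measured 46.2, 213 and 249 CPM against 17.3, 29.97 and 63.1 CPM. Against the 4 nearest clusters the median of this list was 0.53 and against the ductal class 0.94. At day 9 TFF2, at 377 CPM, was lower than in the ductal class (473 CPM) and in the nearest clusters (427 CPM). TFF3, at 249 CPM, was lower than in the ductal class (328 CPM) and higher than in the nearest clusters (138 CPM). TFF1, at 163 CPM, and MUC5AC, at 68.1 CPM, were lower at day 9 than in the nearest clusters (241 and 98.4 CPM). The gel-forming mucin MUC5AC measured 229, 135 and 68.1 CPM against 29.8, 25.2 and 43.9 CPM, so it stood above 2-fold at days 5 and 7 and at 1.55-fold at day 9. Of 6 secreted defence genes, LTF and the resistin-like RETNLB were higher and 0 were lower, with a median of 1.62. Against the 4 nearest clusters that median was 0.36 and against the ductal class 1.22.

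Surface, antigen presentation and interferon genes had lower medians than the mucins. Of 9 surface and gastric-like genes, UPK1A, UPK2, UPK3A and PSCA were higher and 0 were lower, with a median of 1.13. UPK3A, a component of the urothelial plaque, measured 84.3, 140 and 224 CPM against 40.6, 39.99 and 42.2 CPM. Of 5 antigen presentation genes, the immunoproteasome subunits PSMB8 and PSMB9 and the invariant chain CD74 were higher, with a median of 1.47. PSMB8 was low, at 5.07, 10.6 and 10.8 CPM against 1.48, 1.44 and 1.88 CPM, and was one of the 8 genes higher than in the 4 nearest clusters. Of 16 interferon-stimulated genes, MX2, ISG20 and IFIT3 were higher and 0 were lower by 2-fold at all 3 days, with a median of 0.58. IFIT5 had a mean difference of -1.06, at 14.7, 15.8 and 16.7 CPM against 29.5, 40.1 and 32.8 CPM. MX2, a restriction factor against viruses, measured 110, 129 and 105 CPM against 26.7, 23.6 and 22.8 CPM, whereas IFI6, the most abundant gene of that list, differed by 0.09. Of the genes of these 3 lists named here, PSMB8 alone was at least 2-fold higher at all 3 days than in the 4 nearest clusters, and none was so against the ductal class. The list medians were 0.56, 0.45 and 0.38 against the nearest clusters and 0.39, 0.59 and 0.46 against the ductal class, for surface, antigen presentation and interferon-stimulated genes in that order.

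Among transport genes, CFTR and the bicarbonate cotransporter SLC4A4 were higher, or 2 of 7 anion and bicarbonate transport genes, with a median of 0.90. CFTR, the anion channel that is disrupted in these cultures, measured 19.0, 22.4 and 21.9 CPM in the progenitors and 5.71, 8.33 and 10.4 CPM in the other CF cells. The ratios were 3.33 (2.84 to 3.91), 2.69 (2.18 to 3.31) and 2.10 (1.67 to 2.63). By cluster, CFTR measured 24.7, 27.7 and 19.8 CPM in cluster 17, 15.4, 22.6 and 23.0 CPM in cluster 18, and 15.3 and 14.1 CPM in cluster 25 at days 5 and 7. Against the 4 nearest clusters the mean difference was 0.78, short of 2-fold. SLC4A4 measured 7.38, 10.9 and 13.2 CPM against 2.72, 3.34 and 2.16 CPM. Of 10 sodium transport genes, the epithelial sodium channel subunit SCNN1A was higher, at 205, 217 and 208 CPM against 66.6, 48.4 and 52.9 CPM, and the sodium pump subunit ATP1B3 was lower, with a mean difference of -1.32. The channel subunit SCNN1G had a mean difference of -1.03 without passing 2-fold at all 3 days, and of -0.13 from the 4 nearest clusters. SCNN1A measured 147, 189 and 117 CPM in the 4 nearest clusters and 95.7, 176 and 172 CPM in the ductal class, with mean differences of 0.50 and 0.55. The anion and bicarbonate median was 0.19 against the nearest clusters and 0.27 against the ductal class, and that of the cell junction genes was 0.15 and 0.17. Of 16 cell junction genes, the tight junction genes OCLN and MARVELD2 were higher and CLDN1 was lower, with a median of 0.60.

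Other lists are given beside the 5.16% of all genes that were lower and the 2.43% that were higher. Of 10 TGF-beta targets, 8 were lower and 0 higher, with a median of -2.53. Among them were TGFBI, CCN1, CCN2, SMAD7, TGFB1, PMEPA1 and ANKRD1. The matricellular protein CCN2 measured 409, 363 and 409 CPM against 1066, 1736 and 1348 CPM. The list median was -0.83 against the ductal class and -0.78 against the 4 nearest clusters. Of 10 mesenchymal genes, 6 were lower and 0 higher, with a median of -3.81. They were VIM, FN1, TAGLN, CALD1, SPARC and SNAI2. S100A4, also in this list, went the other way, at 88.7, 29.4 and 37.7 CPM against 12.2, 8.15 and 21.3 CPM, and was under 2-fold at day 9. The summed level of the whole list was 142, 109 and 117 CPM against 339, 3053 and 3048 CPM. Against the ductal class the median of this list was -0.17 and against the 4 nearest clusters it was -0.07. Of 8 Notch genes, the ligands DLL1, JAG1 and JAG2 and the modifier LFNG were lower and 0 were higher. Against the ductal class DLL1, JAG2 and LFNG were at least 2-fold lower at all 3 days, and against the 4 nearest clusters all 4 genes were lower at each day but not by 2-fold at every day, with a list median of -1.38 against the other CF cells, -0.61 against the ductal class and -0.41 against the nearest clusters. JAG2 measured 5.44, 1.45 and 0.707 CPM against 44.1, 47.7 and 30.7 CPM. The Notch target HES1 measured 445, 405 and 374 CPM against 974, 892 and 550 CPM, and did not reach 2-fold at day 9. Of 7 basal and squamous genes, KRT5, LY6D and the transcription factor TP63 were lower and 0 were higher, with a median of -1.73. Against the nearest clusters that median was -0.53 and against the ductal class -1.33. TP63 measured 12.6, 6.54 and 4.24 CPM against 104, 125 and 66.1 CPM. Of 15 glycolysis and hypoxia genes, VEGFA and the glucose transporter SLC2A1 were lower, though the list median of -0.25 changed sign under other settings.

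Of 8 S phase genes, RRM2 and MCM7 were lower and 0 were higher, and of 4 mitosis genes above the level filter, CENPF was lower and 0 were higher. CENPF measured 1.75, 0.145 and 0 CPM in the progenitors against 22.1, 3.66 and 1.31 CPM, where 0 UMIs at day 9 allow up to 0.707 CPM. MYC measured 8.51, 3.05 and 2.59 CPM against 24.0, 26.2 and 26.6 CPM. The medians of the S phase and mitosis lists were -0.38 and -1.17, and against the 4 nearest clusters they were 0.04 and 0.16.

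None of the 9 pancreas transcription factors above the level filter was higher or lower by 2-fold at all 3 days, nor was PDX1. PDX1, the pancreatic transcription factor in the title of the study, measured 6.19, 5.82 and 7.07 CPM in the progenitors and 4.27, 4.85 and 4.20 CPM in the other CF cells. SOX9, a factor of duct and progenitor cells, measured 10.6, 14.3 and 16.96 CPM against 4.40, 4.92 and 11.3 CPM, with a mean difference of 1.01 and a day 9 value under 2-fold. In the 4 nearest clusters it measured 7.53, 11.6 and 20.3 CPM, above the progenitors at day 9, with a mean difference of 0.16. PAX6 measured 71.4, 58.0 and 57.7 CPM against 67.6, 56.9 and 46.6 CPM, and its mean difference of 0.14 changed sign under other settings. The median of the pancreas transcription factors was 0.02. Of 15 acinar enzyme genes, 7 were in the matrices and none passed the level filter, with a sum of 0.25, 0.145 and 0 CPM in the progenitors. Ciliated cell genes had 0 members above the level filter and islet genes 1, which was neither higher nor lower. Of the ionocyte and tuft genes 2 passed the filter, and they went in opposite directions, with a list median of 0.10. The proton pump subunit ATP6V1B1 was higher, at 64.1, 76.0 and 66.9 CPM against 20.2, 19.7 and 28.1 CPM. ATP6V0D2 had a mean difference of -1.38, without passing 2-fold at all 3 days. Its difference was -0.79 from the 4 nearest clusters and -0.57 from the ductal class. ATP6V1B1 measured 46.9, 77.0 and 62.6 CPM in the 4 nearest clusters and 16.4, 69.9 and 81.2 CPM in the ductal class, and was not higher by 2-fold at all 3 days against either. Of the blood and immune cell genes LYZ and CD68 passed the filter, and CD68 was higher, at 14.0, 9.74 and 13.0 CPM against 5.77, 3.12 and 5.42 CPM. CD68 measured 9.57, 7.64 and 9.25 CPM in the 4 nearest clusters. Its mean difference was 0.42 there and 0.60 against the ductal class, and it did not pass 2-fold at all 3 days against either.

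**Figure D3:**
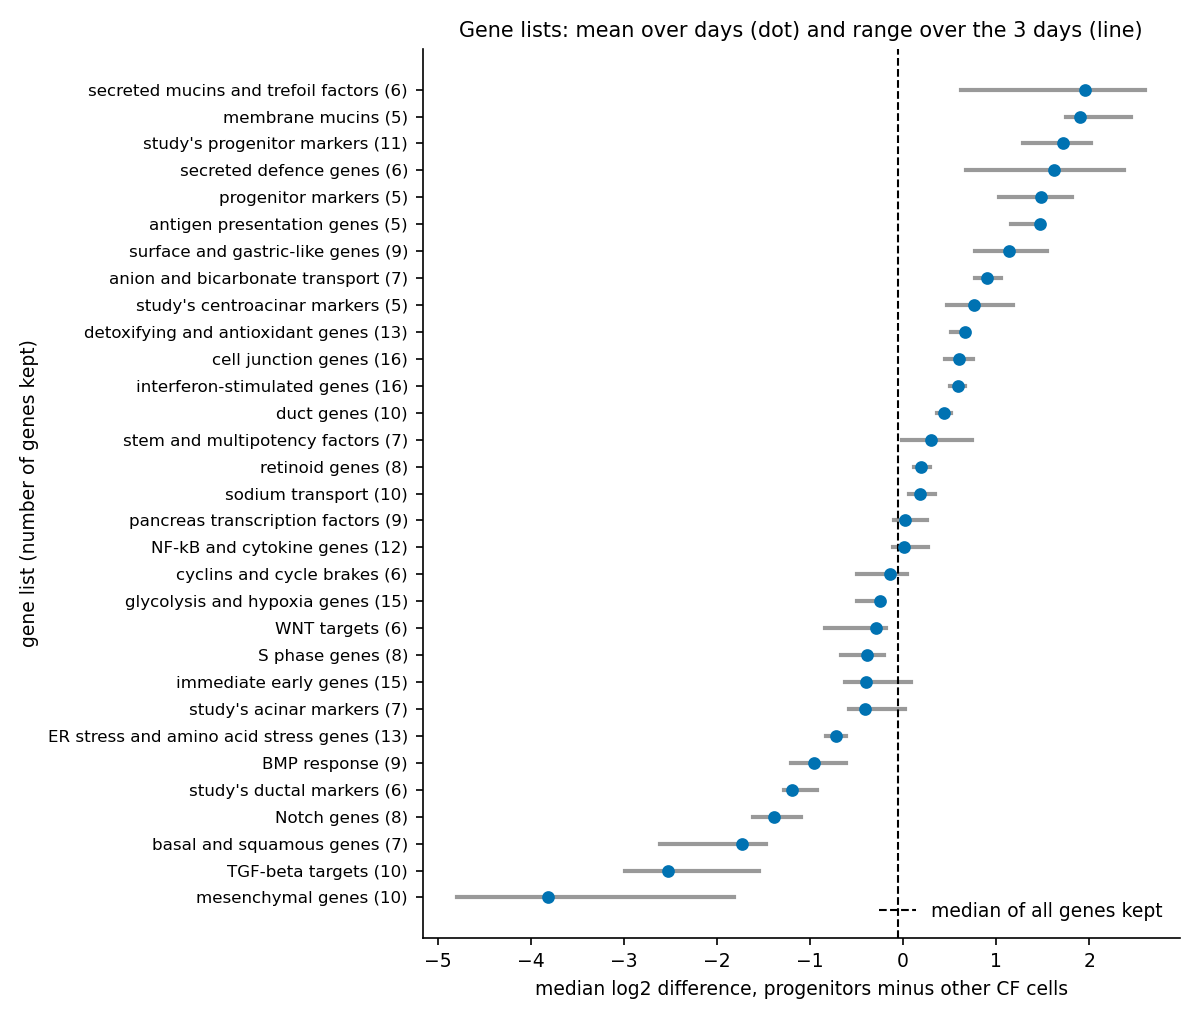
Median log2 difference in CPM plus 1, progenitors minus other CF cells (x axis), for each gene list (y axis, with the number of genes above the level filter), as the mean over days (dot) and the range over days 5, 7 and 9 (line). Secreted mucins and trefoil factors stand highest at 1.95 and mesenchymal genes lowest at -3.81, on either side of the median of all genes (dashed line, -0.05).

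The clusters differed in their leading genes. Cluster 17 was led by MUC5AC, LTF, OLFM4, MUC5B, ENPP3, SPDEF, MUC13 and LOC101684959, a set with 3 mucins and SPDEF, a transcription factor of goblet cells. Cluster 18 was led by CES1, TFF3, SPINK1, FAM3B, EGF, DPP4, TFF2 and LOC101693310. Cluster 25 was led by PI3, S100A4, MUC5B, LYZ, LOC101676065, LOC101690256, SPDEF and TFF2, of which PI3 and LYZ are secreted defence proteins. These genes were picked for their fold over all CF cells outside the cluster, so the levels that follow describe the clusters.

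MUC5AC measured 365, 224 and 131 CPM in cluster 17 at days 5, 7 and 9, against 30.1, 89.7 and 48.4 CPM in cluster 18, and 184 and 149 CPM in cluster 25 at days 5 and 7. MUC5B measured 38.7, 49.2 and 26.7 CPM in cluster 17, against 2.57, 11.7 and 4.29 CPM in cluster 18. The ectoenzyme ENPP3 measured 227, 219 and 145 CPM in cluster 17, against 85.1, 83.0 and 48.7 CPM in cluster 18. For all 3 genes cluster 17 stood above cluster 18 on each day. MUC5AC had a UMI in 107 of 254 cells of cluster 17 at day 5, so it was spread over many cells. OLFM4, in contrast, was seen in 18 of those cells and 1 cell held 52.3% of its UMIs.

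The trefoil factors had the opposite order. TFF2 measured 10.6, 12.7 and 6.97 CPM in cluster 17 and 88.7, 493 and 472 CPM in cluster 18. TFF3 measured 36.6, 18.8 and 9.30 CPM in cluster 17 and 80.3, 242 and 317 CPM in cluster 18. TFF1 measured 0.952, 6.09 and 5.81 CPM in cluster 17 and 4.40, 114 and 203 CPM in cluster 18. The gap in TFF2 and TFF3 was wider at days 7 and 9 than at day 5. At day 9 the ductal class had TFF2, TFF3 and TFF1 at 473, 328 and 188 CPM, near the levels of cluster 18. The 4 nearest clusters had 427, 138 and 241 CPM in the same order. Cluster 25 was at 168 and 907 CPM for TFF2 at days 5 and 7, with 1 of its 26 cells at day 7 holding 54.4% of the UMIs.

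Cluster 18 also had the higher level of other genes. The gene of largest difference between clusters 17 and 18 at day 5 was LOC101688663, at 28.1 CPM in cluster 17 and 483 CPM in cluster 18. The dipeptidyl peptidase DPP4 measured 53.5, 54.0 and 61.9 CPM in cluster 18, against 4.12, 2.21 and 2.33 CPM in cluster 17. CES1 measured 235, 266 and 381 CPM in cluster 18, against 100, 85.8 and 101 CPM in cluster 17. PSCA, of the surface and gastric-like genes, measured 455, 666 and 764 CPM in cluster 18, against 340, 140 and 134 CPM in cluster 17. By contrast, LTF was higher in cluster 17, at 235, 630 and 677 CPM against 166, 288 and 260 CPM. The markers MUC1 and MUC13 were also somewhat higher in cluster 17, with MUC13 at 42.0, 59.8 and 98.8 CPM against 17.6, 32.5 and 32.8 CPM, while TSPAN8 was lower there, at 142, 140 and 137 CPM against 218, 201 and 209 CPM.

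PI3, the elastase inhibitor elafin, was the first gene of cluster 25, at 140 and 26.4 CPM at days 5 and 7. Cluster 17 had 68.99, 37.1 and 10.46 CPM of PI3, and cluster 18 had 7.70, 5.32 and 1.53 CPM. S100A4, a calcium-binding protein of motile cells, measured 144 and 31.7 CPM in cluster 25 and between 20.2 and 51.1 CPM in clusters 17 and 18. LYZ in cluster 17 at day 9 came almost wholly from 1 cell, which held 97.4% of its UMIs there.

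In cluster 21, UMIs were counted both for MUC1 and for genes that were low in clusters 17 and 18. Its MUC1 level was 1256 CPM at day 7 and 834 CPM at day 9. At the same days SPP1 stood at 262 and 251 CPM, KRT5 at 240 and 160 CPM, SPARC at 184 and 114 CPM and TAGLN at 50.2 and 68.6 CPM. These rest on few UMIs, such as 47 and 22 for SPP1 and 9 and 6 for TAGLN, and the part of free RNA in them was not tested. In clusters 17 and 18, SPP1, SPARC and KRT5 were at or under 18.3 CPM at those days, and TAGLN at or under 3.67 CPM. MUC4 had 0 UMIs in cluster 21 at day 9, among 87499 UMIs, which allows up to 34.3 CPM. The cells of cluster 21 held so few UMIs that they weighed little in the sums, and without it 204 genes were higher and 440 lower.

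**Figure D4:**
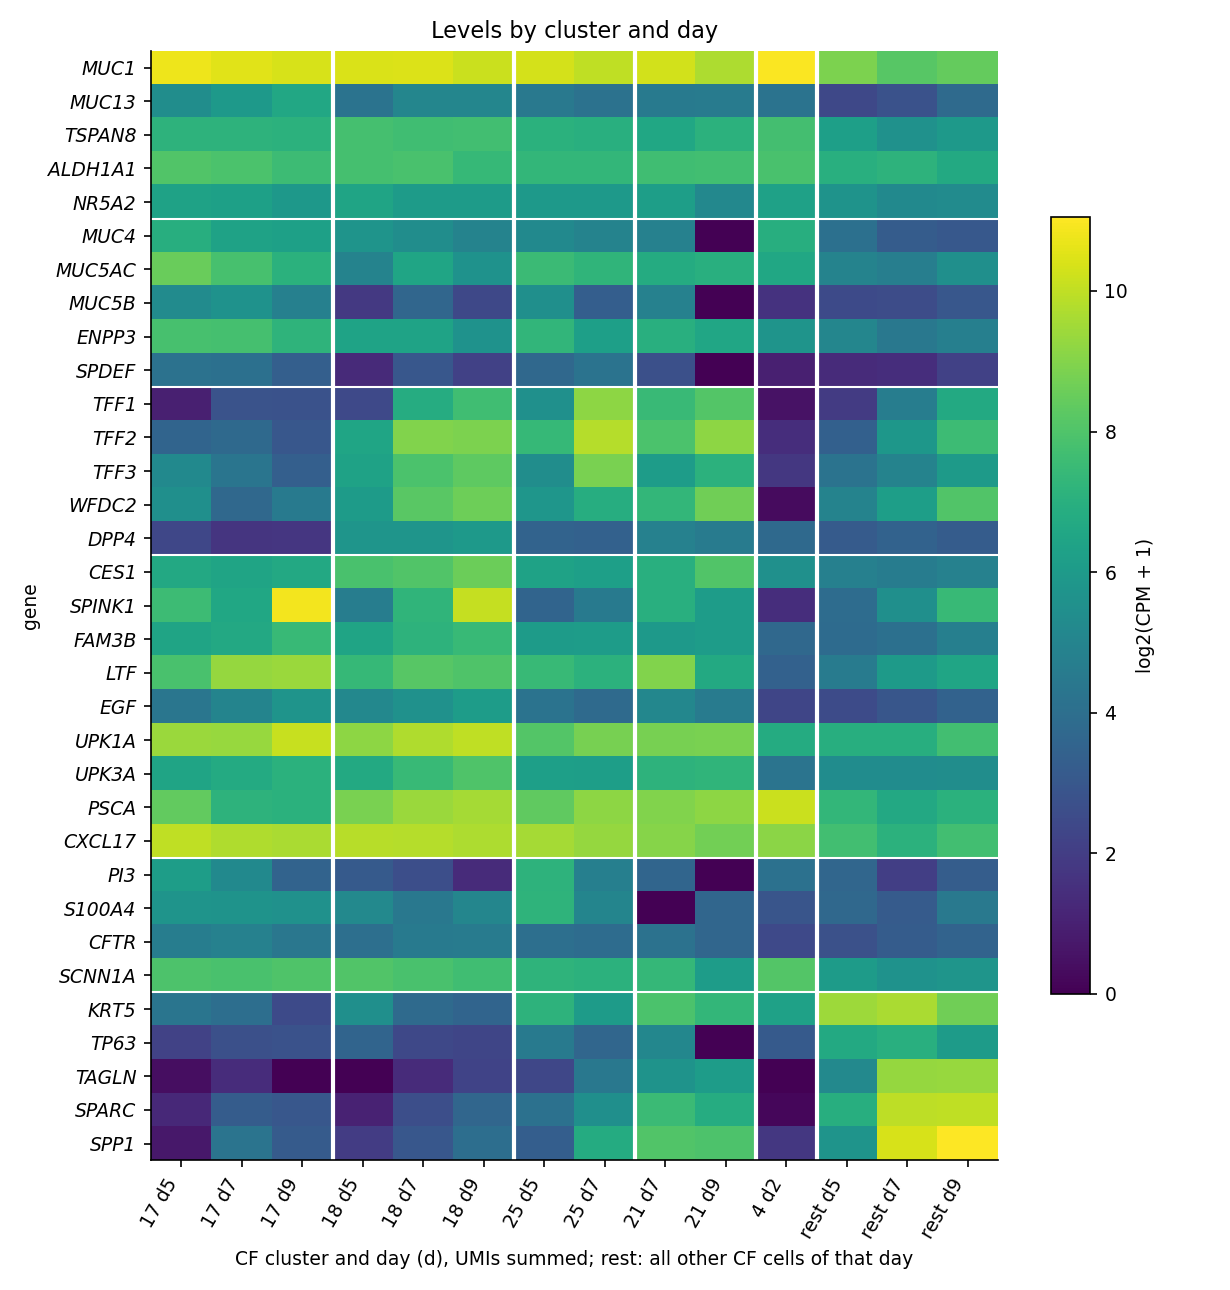
Level of each gene as log2 of CPM plus 1 (colour) in clusters 17, 18, 25 and 21 by day, in CF cluster 4 at day 2 and in the other CF cells by day (x axis), with genes on the y axis. Clusters 17 and 18 differ in MUC5AC, MUC5B, TFF1, TFF2, TFF3 and DPP4, and cluster 21 has SPP1, SPARC and KRT5 at levels between those of clusters 17 and 18 and those of the other CF cells.

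Between day 5 and day 9, 60 of 7637 genes (0.786%) were at least 2-fold higher in the progenitors at day 9, and 55 (0.72%) were at least 2-fold lower. Among genes with steps in 1 direction and at least 50 CPM at a day, SPINK1 had the largest gain, 3.82 on the log2 scale. The other CF cells gained 3.55 in SPINK1. TFF1 gained 2.92, TFF3 gained 2.41, the secreted protease inhibitor WFDC2 gained 2.55 and EGF gained 1.55. The other CF cells gained 4.82 in TFF1, 1.81 in TFF3, 3.13 in WFDC2 and 0.96 in EGF. The day 5 and day 9 cells came from 1 library each, and day cannot be told apart from library.

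Within single clusters some of these changes had another direction. WFDC2 changed by 2.54 within cluster 18 and by -0.96 within cluster 17, and TFF3 by 1.97 and -1.87. TFF1 was higher at day 9 within both, by 5.24 in cluster 18 and 1.80 in cluster 17, and so were SPINK1, by 5.39 and 3.27, and EGF, by 0.95 and 1.41. Among genes with steps in 1 direction and at least 50 CPM at a day, PI3 had the largest loss, -3.81. Its change was -2.61 within cluster 17 and -1.78 within cluster 18. KRT5 changed by -2.50, with -1.78 and -1.96 within the clusters, but by 0.26 when each cell weighed the same. The interferon-stimulated gene ISG15 measured 50.7, 18.5 and 8.72 CPM in the progenitors, and at day 5 it stood at 94.0 CPM in cluster 25, against 16.6 CPM in cluster 17 and 18.3 CPM in cluster 18.

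**Figure D5:**
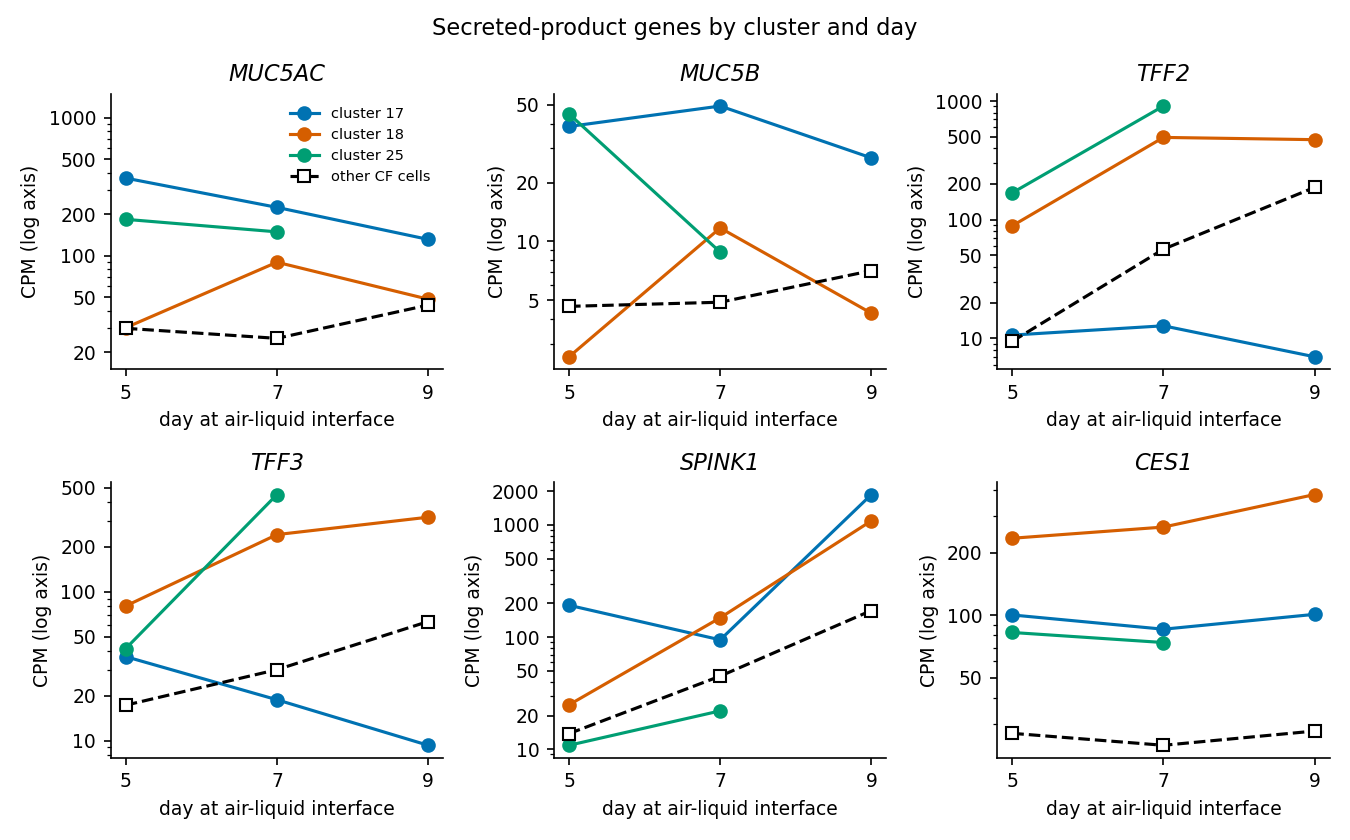
CPM on a log axis (y) of MUC5AC, MUC5B, TFF2, TFF3, SPINK1 and CES1 at days 5, 7 and 9 (x) in cluster 17, cluster 18, cluster 25 (days 5 and 7) and the other CF cells (dashed), from summed UMIs of 1 library a day. MUC5AC and MUC5B lie higher in cluster 17 than in cluster 18 at each day, TFF2 and TFF3 lie lower, and SPINK1 reaches 1868 and 1089 CPM at day 9 in the 2 clusters.

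CF cluster 4 held most CF cells of the centroacinar progenitor class at day 2. MUC1 stood at 2047 CPM in cluster 4, MUC4 at 120 CPM and TSPAN8 at 215 CPM, all above the progenitors at days 5 to 9, and MAL stood at 521 CPM, near the 527 CPM of the progenitors at day 5. LTF was at 9.78 CPM, TFF2 at 1.75 CPM, SPINK1 at 1.69 CPM, EGF at 3.98 CPM and WFDC2 at 0.27 CPM, all under the lowest day of the progenitors. MUC13 was at 17.3 CPM, TFF3 at 2.496 CPM and FAM3B at 12.1 CPM, also under it, whereas MUC5AC was at 93.8 CPM and MUC16 at 289 CPM. ISG15 was at 161 CPM in cluster 4, above the 50.7 CPM of the progenitors at day 5. These cells came from another library, so day, library and cluster cannot be told apart.

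The WT cultures also held cells of the centroacinar progenitor class, which made up 11.5%, 21.6%, 30.9% and 16.6% of WT cells at days 2, 5, 7 and 9. MUC1 stood at 1707, 1998, 1677 and 1889 CPM and MUC13 at 91.6, 287, 312 and 306 CPM. Each was above the CF progenitors outside cluster 4 at days 5, 7 and 9. At day 2, CF cluster 4 stood above the WT class in MUC1 and under it in MUC13. ALDH1A1 measured 454, 461, 562 and 489 CPM. The progenitors of the 2 genotypes parted in other genes, though the other CF cells also held NR5A2, MAL, SPINK1 and PDX1. WT cells outside this class were not measured for these genes. NR5A2 was at most 0.853 CPM in the WT class, MAL was at 1.097 to 3.63 CPM, and SPINK1 at or under 0.427 CPM. PDX1 had 0 UMIs at all 4 days in the WT class, which allows up to 0.213 CPM at day 9, the shallowest. WFDC2 reached 19728 CPM at day 9, and PROM1, a surface protein of progenitor and duct cells, stood at 302 to 595 CPM, against 16.3 to 25.1 CPM in the CF progenitors. Genotype and library cannot be told apart here, since each value comes from 1 library.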

How the data were processed

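Single-cell libraries of WT and CF (CFTR KO/KO) ferret PDE cultures were measured at days 2, 5, 7 and 9, with 1 library of 3 pooled donors per genotype and day. The deposited counts are whole UMI counts per gene and barcode, which the authors made with Cell Ranger 5.0.1 and the annotation ASM1176430v1.1, and filtered and clustered with R 4.1.2 and Seurat, per the submitters' processing notes and the methods. Doublets had been removed by the authors with DoubletFinder. The deposited cell table gives each retained cell its cluster, class and percent of mitochondrial reads, and these were used as the authors gave them. Only cells in that table were used.

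UMIs were summed per library over the progenitors, each of their clusters and the other CF cells, and divided by the total to give counts per 1000000 UMIs (CPM). Differences are log2 of CPM plus a pseudocount of 1, for genes with at least 10 CPM on either side at a day, at days with at least 50 progenitors. A gene was called at 2-fold in the same direction at all 3 of these days. Levels by cluster and day need at least 20 cells. Intervals are exact Poisson for UMI sums, conditional binomial for ratios and Clopper-Pearson for shares, at 95% confidence. They cover counting error only, and cells are not replicates, so no p-value was computed. Total UMIs per cell, and not reads, set the precision. The planned change from day 2 to day 9 was taken from day 5 to day 9, since day 2 had 8 progenitors. Alternatives included TMM factors (edgeR 4.0.16), which were computed on the sums. Python 3.11.15 was used, and the scripts were tested on simulated data. The 39 gene lists, the rule and the cells were chosen with earlier results of these data known. Named genes were the 15 highest and 10 lowest of the called genes, the 8 leading genes of each cluster, the markers with CFTR, PDX1, SOX9, HES1 and PAX6, up to 4 genes of largest difference and the most abundant one per list, and the 5 largest gains and losses over days with steps in 1 direction and at least 50 CPM at a day. Genes higher or lower than in the ductal class or the nearest clusters, other called members of a list, MUC4 in cluster 21 and PSCA by cluster were named after their values were seen. No sequences are shown.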

Additional observations from a re-analysis of the deposited data

How the results depend on the processing

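No paired analysis was possible because each genotype and day has 1 library. At day 2 the share of progenitors was 0.0222% without cluster 21, the only one of their clusters with a low UMI count, and 13.8% with cluster 4 counted in. At day 5 it was 10.0% without cluster 17, 16.0% without cluster 18 and 13.1% without cluster 25. At day 7 it was 16.7% in cells of at least 3000 UMIs, 16.9% without cluster 17, 13.6% without cluster 18 and 11.9% without cluster 21. At day 9 it was 7.99% in cells of at least 3000 UMIs, 8.28% without cluster 17, 4.26% without cluster 18 and 7.19% without cluster 21. The genes higher and lower, 206 and 437, numbered 125 and 267 with a pseudocount of 5 CPM, 101 and 195 among genes of at least 50 CPM, and 410 and 693 when the mean over days had to pass 2-fold. They numbered 10 and 53 against the ductal class, and 316 were higher without day 5. Chosen after seeing the data, the 4 nearest clusters gave 8 and 17, and the other CF cells without clusters 3 and 11 gave 99 higher. From day 5 to day 9, 328 genes were higher when each cell weighed the same, and 125 higher and 127 lower within cluster 17. KRT5 then changed by 0.26 when each cell weighed the same, and within cluster 17 WFDC2 changed by -0.96, TFF3 by -1.87 and LOC106003392 by 0.049. The causes were not tested. Of 680 recomputed differences of named genes, 551 moved by less than the spread over days, 129 moved by more, and no called gene changed sign. Of 468 list medians, 72 moved by more. With 1 library a group, the spread between cultures is unknown, and genes with few UMIs in cluster 21 or in cluster 17 at day 9 are limited by depth.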
